A study of Mus musculus with 2 samples.

Results

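The small leucine-rich proteoglycans are 9 genes here, Dcn (decorin), Lum (lumican), Bgn (biglycan), Fmod (fibromodulin), Ogn (osteoglycin), Prelp, Omd (osteomodulin), Aspn (asporin) and Podn (podocan), chosen by name from the 32285 genes of the series. Their transcripts were counted in single cells of mouse aorta and described across marker-gated cell classes. Both samples came from ApoE-/- mice aged 20 weeks, a strain that lacks apolipoprotein E and develops atherosclerosis, and the series describes the mice as HFD-fed. One sample is labelled HFD and the other MSC_ITGB3, a treatment and the sources used here give no dose, route or timing for it, nor the sex of the mice or the number of animals per sample. The deposited matrix pools both samples, and its barcodes end in 1 or 2. No label or header ties an ending to a sample, so the endings are called library 1 and library 2, no group comparison was made, and intervals cover counting error only, since a single library stands for each.

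The proteins of this family are secreted and built on a curved stack of leucine-rich repeats. They bind fibrillar collagen and set the width and spacing of its fibrils, and several bind growth factors of the TGF-beta family. Decorin and biglycan carry chondroitin or dermatan sulfate chains, whereas lumican, fibromodulin and osteomodulin can carry keratan sulfate, and asporin carries no such chain. In the artery decorin is known chiefly from the adventitia, and biglycan from the media and from atherosclerotic intima, where it is known to bind lipoproteins.

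Most members lie beside another member in the mouse genome (build mm10, GRCm38; all are protein-coding genes). Aspn (13:49544443-49567565), Omd (13:49582462-49592822) and Ogn (13:49608046-49624501) follow each other on the plus strand of chromosome 13, 14.9 and 15.2 kb apart. Dcn (10:97479609-97518143) and Lum (10:97565128-97572703) lie 47.0 kb apart on the plus strand of chromosome 10. Prelp (1:133910304-133921414, minus strand) and Fmod (1:134037254-134048277, plus strand) lie 115.8 kb apart on chromosome 1. Podn (4:108014791-108096445, minus strand) and Bgn (X:73483602-73495933, plus strand) have no other member nearby.

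The 250 bases before the start site are shown for the chromosome 13 trio, whose neighbouring genes differed in pattern across the vessel wall, and for Fmod, the gene with the largest excess in chondrocyte-like barcodes. They are RefSeq sequences of GRCm38.p6, read 5′ to 3′ along the gene's strand, which is plus for these 4 genes, and capitals mark TATAAA or its reverse complement TTTATA.
Aspn, chr13:49544193-49544442: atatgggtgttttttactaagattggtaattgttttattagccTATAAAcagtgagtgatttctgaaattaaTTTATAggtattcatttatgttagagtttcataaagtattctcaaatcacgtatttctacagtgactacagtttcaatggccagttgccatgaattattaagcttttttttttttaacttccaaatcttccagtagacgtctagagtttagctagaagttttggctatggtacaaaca
Omd, chr13:49582212-49582461: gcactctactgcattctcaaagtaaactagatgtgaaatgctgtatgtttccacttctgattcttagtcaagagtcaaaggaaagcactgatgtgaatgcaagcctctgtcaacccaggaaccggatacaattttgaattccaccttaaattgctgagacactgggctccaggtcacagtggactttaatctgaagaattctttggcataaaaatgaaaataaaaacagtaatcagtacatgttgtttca
Ogn, chr13:49607765-49608014: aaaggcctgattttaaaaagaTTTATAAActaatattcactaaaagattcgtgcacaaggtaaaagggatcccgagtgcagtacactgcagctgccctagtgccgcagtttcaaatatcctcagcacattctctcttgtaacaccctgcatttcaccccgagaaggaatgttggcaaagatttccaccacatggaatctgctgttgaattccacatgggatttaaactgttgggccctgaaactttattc
Fmod, chr1:134037004-134037253: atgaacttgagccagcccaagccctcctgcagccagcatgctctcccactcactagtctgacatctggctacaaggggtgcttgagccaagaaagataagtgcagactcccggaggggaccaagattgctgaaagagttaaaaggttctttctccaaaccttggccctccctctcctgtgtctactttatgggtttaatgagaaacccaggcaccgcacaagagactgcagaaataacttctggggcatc
The upstream sequence of Aspn held 2 matches to TATAAA on either strand and that of Ogn held 2 overlapping ones, all in the distal part of the window, and those of Omd and Fmod held 0. The same letters occur in 12.3% of all 32536 RefSeq windows of this length. The CArG box, the serum response factor motif that many contractile genes carry, occurs in 1.48% of windows and in 0 of these 4. GGGCGG, searched on both strands, occurs in 33.0% of windows and likewise in 0 of these 4. The GC content of the 4 windows was 30.0% for Aspn, 38.4% for Omd, 42.0% for Ogn and 51.2% for Fmod. These matches describe letters only.

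Library 1 held 110257209 UMIs (unique molecules) and library 2 held 124266676. Barcodes with 3000 or more UMIs and at most 20% mitochondrial UMIs were kept, 6332 and 6540 of them, with medians of 8746 and 6031 UMIs, and 17 barcode sequences occurred in both libraries. Of the UMIs in library 1, 71.3% lay in kept barcodes, against 49.7% in library 2. Apoe, the gene the strain lacks, was at 13.6 and 8.38 CPM, counts scaled to 1000000 UMIs, over the kept barcodes. A 3′ count can come from outside the deleted part, so this does not check the genotype.

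Each kept barcode was thinned to 3000 UMIs and put in a class by how many genes of marker panels it showed, none of them a family member. The classes held 1174 and 918 fibroblast-like barcodes, 735 and 1054 contractile smooth muscle-like, 433 and 551 modulated smooth muscle-like, and 53 and 230 chondrocyte-like barcodes in library 1 and library 2. Modulated here means that at least 4 of 10 contractile genes were present together with at least 4 of 8 genes such as Igfbp2, Tnfrsf11b and Spp1, which smooth muscle gains in plaque. Endothelial-like (662 and 125) and macrophage-like (298 and 204) barcodes served for comparison. Outside the panels, the fibroblast-like class was led by Igfbp6 and Cygb, the contractile class by Tcap and Sost, the modulated class by Cemip, Hs6st2 and Ccn5, and the chondrocyte-like class by Scrg1 and Sdk2. Tcap and Sh3bgr, striated muscle genes, stood among the leading genes of the contractile class beside Myh11. Depth differed between the libraries in the modulated class (medians of 18242 and 5706 UMIs) and in the chondrocyte-like class (21576 and 5640.5), and in the latter 49.1% and 25.2% of barcodes lay exactly at the gate's limit. The chondrocyte panel summed to 13936 CPM in that class of library 1 and to 30596 CPM in library 2, so the class is not alike in the 2 libraries.

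The 9 genes took 1.83% and 2.04% of all UMIs in fibroblast-like barcodes of library 1 and library 2, 1.64% and 1.52% in modulated smooth muscle-like, 2.65% and 1.85% in chondrocyte-like, and 0.382% and 0.413% in contractile smooth muscle-like barcodes. In macrophage-like barcodes, which do not make these proteins in quantity, the share was 0.0533% and 0.0475%. The family thus took a similar share of the RNA in fibroblast-like and modulated barcodes, but its make-up differed. Dcn gave 64.3% and 62.0% of the family's UMIs in fibroblast-like barcodes, and Bgn gave 58.8% and 64.7% in contractile ones. In modulated barcodes Bgn gave 40.3% and 40.4% and Lum 34.8% and 32.8%. In chondrocyte-like barcodes Dcn led with 44.9% and 34.6%, and Fmod, under 2% of the family elsewhere among these 4 classes, gave 5.36% and 7.45%.

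**Figure D1:**
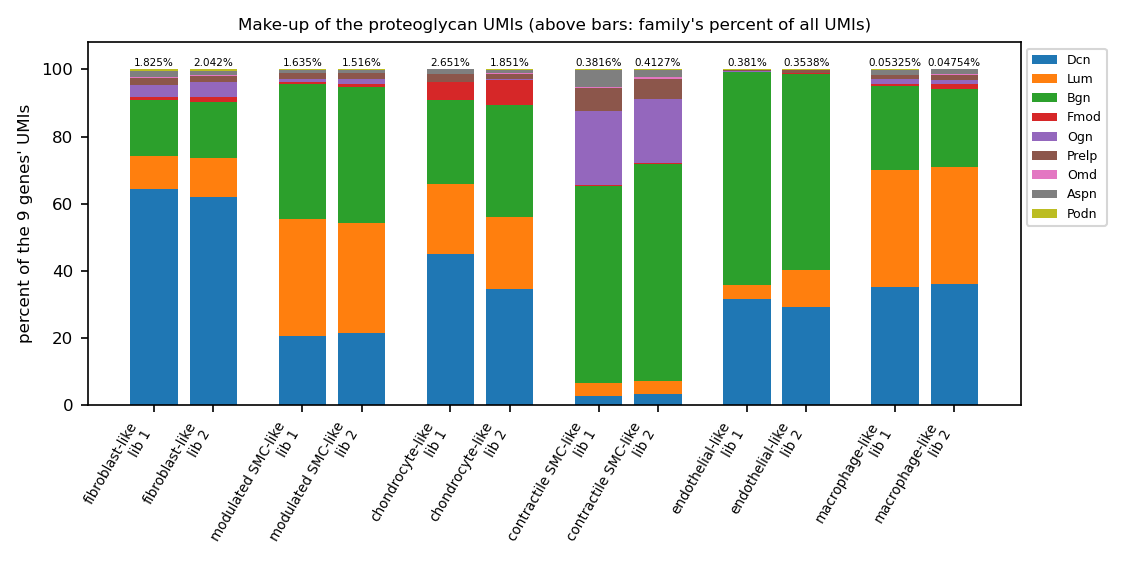
Each bar splits the UMIs of the 9 proteoglycan genes by gene, in percent of the family's UMIs, for 1 class in 1 library, with the family's percent of all UMIs written above it. Dcn fills most of the fibroblast-like bars (64.3% and 62.0%), Bgn most of the contractile bars, and Lum is widest in the modulated and macrophage-like bars.

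Decorin, which caps the lateral growth of collagen fibrils, was the most abundant transcript of all genes in fibroblast-like barcodes. Its level there was 11738 CPM in library 1 and 12664 CPM in library 2. In modulated smooth muscle-like barcodes it was at 3378 and 3263 CPM, and in chondrocyte-like barcodes at 11897 and 6398 CPM. Contractile barcodes held 105 and 134 CPM, less than the 187 and 172 CPM in macrophage-like barcodes. With free RNA subtracted the contractile level was 0 in both libraries. The estimate for contractile barcodes used panels of other cell types, the endothelial one among them. Of that panel Pecam1 was at 47.0 and 71.4 CPM in contractile barcodes and Cdh5 at 2.07 and 0.704 CPM. In endothelial-like barcodes they were at 2572 and 2426 CPM and at 792 and 836 CPM. Any panel gene that the cells make themselves would raise the estimate. The part of free RNA in the contractile Dcn level was not tested. Macrophage-like barcodes kept 131 and 94.4 CPM after subtraction, but their estimate used the fibroblast, contractile and chondrocyte panels. Each gate also limited the genes of the panels used for its estimate. What part of the macrophage-like level is free RNA was not tested.

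Biglycan, the close relative of decorin, was spread over every wall class. The order was the same in both libraries for the extremes: contractile barcodes were lowest of the 4 classes at 2244 and 2671 CPM, and fibroblast-like ones followed at 3091 and 3363 CPM. Modulated (6590 and 6132 CPM) and chondrocyte-like (6627 and 6183 CPM) barcodes stood highest and did not differ beyond counting error, with chondrocyte-like over modulated ratios of 1.01 (0.984 to 1.03) and 1.01 (0.991 to 1.03). Macrophage-like barcodes held 134 and 111 CPM, so the contractile level was 16.8-fold and 24.0-fold the macrophage-like level. Per Dcn UMI, Bgn gave 0.263 and 0.266 UMIs in fibroblast-like barcodes, 1.95 and 1.88 in modulated ones, and 21.3 and 19.9 in contractile ones.

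Asporin, a relative of decorin that binds collagen and calcium, was present in all 4 wall classes. It was at 313 and 221 CPM in fibroblast-like, 155 and 140 CPM in modulated, 192 and 95.3 CPM in contractile, and 321 and 192 CPM in chondrocyte-like barcodes. All of these stood far above the 7.52 and 5.87 CPM in macrophage-like barcodes. The order of contractile and modulated barcodes differed between the libraries, with contractile higher in library 1 and modulated higher in library 2.

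Lumican, a keratan sulfate proteoglycan best known from the cornea, was highest in modulated and chondrocyte-like barcodes rather than in fibroblast-like ones. Modulated barcodes held 5680 and 4978 CPM, chondrocyte-like ones 5535 and 3969 CPM and fibroblast-like ones 1777 and 2391 CPM. The modulated level was 3.20-fold (3.15 to 3.25) the fibroblast-like level in library 1 and 2.08-fold (2.05 to 2.12) in library 2. Contractile barcodes held 144 and 165 CPM, at or below the 185 and 165 CPM of macrophage-like barcodes. With free RNA subtracted, the contractile ratio of library 2 to library 1 was 0.00462. Part of the contractile level thus remained in library 1, and little or none of it in library 2. The part of free RNA in it was not tested. Per Dcn UMI, Lum gave 0.151 and 0.189 UMIs in fibroblast-like barcodes against 1.68 and 1.53 in modulated barcodes.

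Fibromodulin, a relative of lumican found in cartilage and tendon, was highest in chondrocyte-like barcodes. Its level there was 1420 and 1379 CPM, against 153 and 344 CPM in fibroblast-like and 97.7 and 134 CPM in modulated barcodes. In contractile barcodes it was at 3.22 and 4.92 CPM, close to the 2.44 and 6.24 CPM of macrophage-like barcodes.

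Prelp, which anchors basement membranes to the collagen beneath, was at 401 and 380 CPM in fibroblast-like, 262 and 271 CPM in modulated, and 261 and 245 CPM in contractile barcodes. Chondrocyte-like barcodes held 633 CPM in library 1 and 253 CPM in library 2, so their place in the order was the highest in library 1 only. Osteomodulin, first known from bone, was a low transcript. It was at 49.1 and 51.3 CPM in fibroblast-like, 18.4 and 15.7 CPM in contractile, 6.49 and 7.76 CPM in modulated, and 22.2 and 73.3 CPM in chondrocyte-like barcodes.

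Osteoglycin, also called mimecan, had a pattern of its own. Contractile barcodes held 843 and 793 CPM and fibroblast-like ones 634 and 895 CPM, so each class was the higher in 1 of the libraries. Modulated barcodes held 150 and 209 CPM, and chondrocyte-like ones 46.6 and 48.9 CPM. In macrophage-like barcodes it was at 8.33 and 5.50 CPM. Podocan, known to restrain smooth muscle growth, was chiefly a fibroblast-like transcript, at 91.2 and 107 CPM there and 28.0 and 29.7 CPM in modulated barcodes. It was at 5.73 and 11.3 CPM in chondrocyte-like and 5.17 and 3.34 CPM in contractile barcodes.

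**Figure D2:**
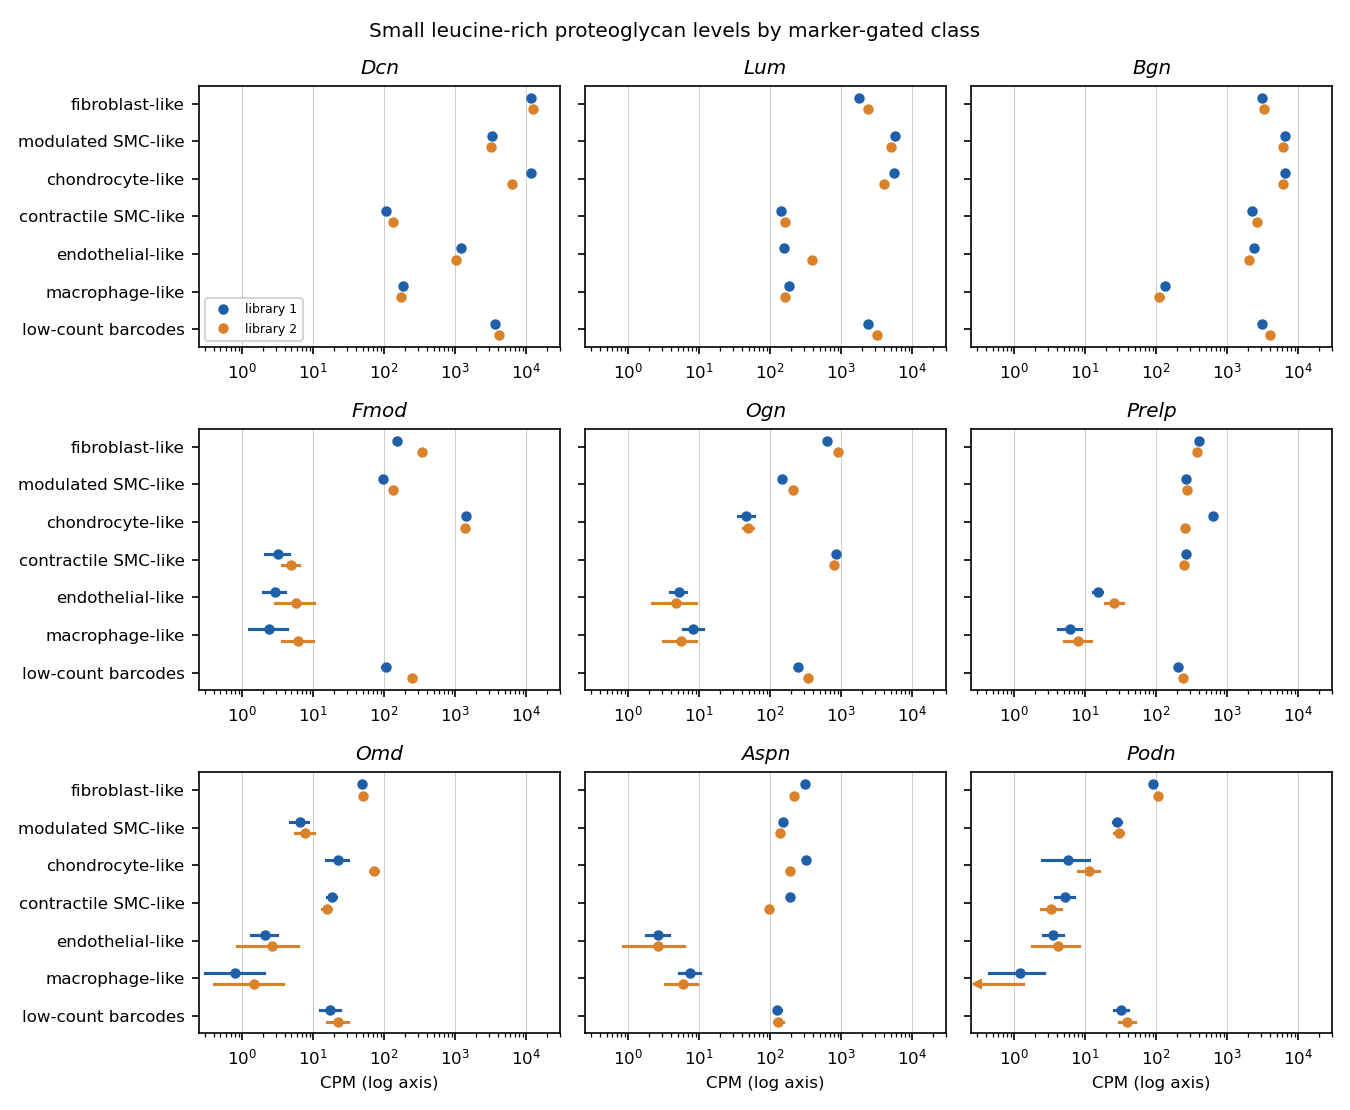
CPM of each gene on a log axis, for the 6 classes and for barcodes of 10 to 100 UMIs, with library 1 in blue and library 2 in orange. Bars are 95% Poisson intervals, narrower than the points for most genes, and the arrowhead marks the 0 UMIs of Podn in macrophage-like barcodes of library 2. In the Ogn panel the contractile points lie beside the fibroblast-like ones, unlike in the Dcn, Lum, Fmod and Podn panels.

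The share of barcodes with at least 1 UMI was compared after every barcode was thinned to 3000 UMIs. Ogn was seen in 80.1% and 83.4% of contractile barcodes, 67.2% and 72.2% of fibroblast-like ones and 3.36% and 1.96% of macrophage-like ones, whose median depths were 12872.5 and 10310.5 UMIs before thinning. Without thinning the contractile shares were 94.2% and 94.5%. Lum was seen in 93.5% and 94.7% of modulated barcodes and in 17.1% and 18.8% of contractile ones. In macrophage-like barcodes its share was 16.1% and 26.0%. Fmod was patchy in fibroblast-like barcodes, at 22.7% and 36.9%, but was seen in 86.8% and 83.0% of chondrocyte-like ones.

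Fibroblast-like barcodes, whose markers are those of the adventitia, were first compared with contractile smooth muscle-like barcodes of the media. A gene was counted as higher when its CPM ratio was at least 2 in both libraries. Among the 9 members 5 were higher in fibroblast-like barcodes (Dcn, Lum, Fmod, Omd and Podn), 0 were lower and 4 were neither (Bgn, Ogn, Prelp and Aspn). Of the 9380 genes at 10 CPM or more in either class, 13.2% were higher by the same rule and 9.18% lower. The median log2 ratio of the members was 1.42 and 1.70, that of all these genes 0.01 and 0.05. Dcn was 112-fold (105 to 119) and 94.2-fold (89.6 to 99.1) higher, against a contractile level that was 0 with free RNA subtracted. Lum was 12.3-fold (11.6 to 13.0) and 14.5-fold (13.8 to 15.2) higher. Its contractile level partly remained in library 1 only with free RNA subtracted. Omd, which is above the macrophage-like level in both classes, was 2.67-fold (2.25 to 3.19) and 3.26-fold (2.73 to 3.90) higher. Prelp was 1.54-fold and 1.55-fold and Bgn 1.38-fold and 1.26-fold higher, and Ogn stood at 0.751 and 1.13 times its contractile level.

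Modulated barcodes were then compared with contractile ones, the 2 smooth muscle-type classes. Here 5 members were higher (Dcn, Lum, Bgn, Fmod and Podn), where 6.96% of 9047 genes were, and 2 were lower (Ogn and Omd), where 4.85% of genes were. The median log2 ratio of the members was 1.55 and 1.20, against -0.04 and 0.00 for all genes. Lum was 39.3-fold (37.2 to 41.6) and 30.2-fold (28.8 to 31.7) higher, from a contractile level that partly remained in library 1 only with free RNA subtracted. Dcn was 32.1-fold and 24.3-fold higher, again from a contractile level that was 0 with free RNA subtracted. Bgn, present in both classes, was 2.94-fold (2.89 to 2.99) and 2.30-fold (2.26 to 2.33) higher. Ogn was 5.62-fold (5.28 to 5.99) and 3.79-fold (3.58 to 4.03) lower in modulated barcodes. Omd was 2.84-fold (2.05 to 3.98) and 2.03-fold (1.46 to 2.87) lower. With each barcode thinned to 3000 UMIs before summing, which weights shallow and deep barcodes alike, Bgn (log2 ratio of 0.9987 in library 2) and Omd (-0.57) fell short of 2-fold, while Dcn, Lum, Fmod, Podn and Ogn kept their calls. The fibroblast panel also summed higher in the modulated class (953.5 and 941.8 CPM) than in the contractile class (283.8 and 344.8 CPM), with all 10 genes seen in both, against 9019 and 8068 CPM in fibroblast-like barcodes. Only the contractile gate limited genes of the small-vessel mural panel, which summed to 2119 and 1805 CPM in the modulated class. In the contractile class that panel summed to 932.2 and 1738 CPM. The part of either panel in these differences was not tested.

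The same shift was followed in finer steps. Smooth muscle-type barcodes with at least 4 contractile genes were ordered into 7 bins by how many of the 8 modulated-panel genes they showed, from 0 to 6 or more, with 85 to 350 barcodes per bin in library 1 and 121 to 583 in library 2. Ogn went down from 1012 to 140 CPM in library 1 and from 1000 to 125 CPM in library 2, which is 7.21-fold (6.26 to 8.34) and 8.03-fold (6.91 to 9.39). It stepped down at 5 of 6 steps in library 1 and 6 of 6 in library 2. Myh11, the smooth muscle myosin that served in the contractile gate, was 3.87-fold and 4.54-fold lower at the far end. Every bin required at least 4 contractile genes, which limits how far Myh11 can fall, so its decline cannot be ranked against that of Ogn.

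Lum went the other way, from 179 to 5276 CPM and from 84.9 to 5765 CPM. Dcn went from 213 to 3704 CPM and from 117 to 3629 CPM. In library 1 Lum stepped up at 4 of 6 steps and Dcn at 5, and in library 2 both at 6 of 6. Both dipped in the library 1 bin with 1 modulated gene, to 103 CPM for Lum and 80.5 CPM for Dcn. The steepest part of both lay between the bins with 2 and 4 modulated genes, where Lum passed from 580 to 5033 CPM in library 1 and from 455 to 3213 CPM in library 2. Ogn and Lum crossed within that stretch: in the bin with 2 modulated genes Ogn (666 and 648 CPM) was still above Lum, and in the bin with 3 it (315 and 430 CPM) was below Lum (2323 and 1296 CPM).

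Bgn was 3.27-fold (3.15 to 3.39) and 3.16-fold (3.04 to 3.28) higher at the far end, from a high start of 1934 and 2160 CPM. Fmod and Podn started at 2.75 and 4.78 CPM each, the level of 6 and 8 UMIs, and ended at 162 and 139 CPM for Fmod and 21.8 and 38.9 CPM for Podn. Prelp stayed within 1.18-fold (1.03 to 1.34) and 1.04-fold (0.903 to 1.21) from end to end, between 219 and 283 CPM in all 14 bins of the 2 libraries. Aspn went from 234 to 124 CPM in library 1 and from 107 to 165 CPM in library 2, in opposite directions. Omd went from 26.6 to 11.2 CPM and from 20.9 to 1.32 CPM, the last from 2 UMIs. The fibroblast panel summed to 237.4 and 315.5 CPM in the first bin and 927.5 and 841.5 CPM in the last, and median depth went from 9867.5 to 17490 UMIs in library 1 but from 9257 to 5606 in library 2. Their part in the gradients was not tested.

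**Figure D3:**
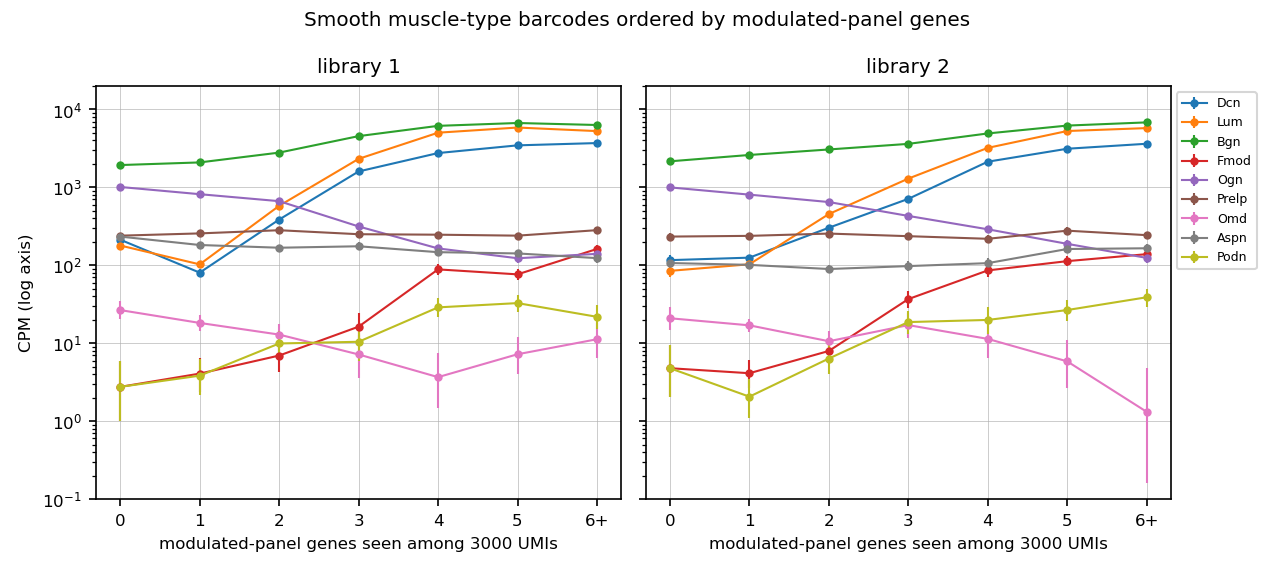
CPM on a log axis for the 9 genes in smooth muscle-type barcodes, binned by the number of modulated-panel genes seen among 3000 UMIs, with library 1 on the left and library 2 on the right and 95% Poisson intervals as bars. From the first bin to the last Lum and Dcn climb and Ogn declines in both libraries, though Lum and Dcn first dip in library 1. The lines of Ogn and Lum cross between the bins with 2 and 3 genes.

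Within the fibroblast-like class the members did not all vary together. The 5 subsets were set by their own panels and are called by the first gene of each: Inmt (290 and 284 barcodes), Opcml (479 and 289), Saa3 (126 and 81), Penk (74 and 47) and Apod (53 and 82), with 152 and 135 barcodes in none. The Inmt subset held the highest level of 6 members in both libraries, namely Dcn, Fmod, Ogn, Prelp, Omd and Podn. For Prelp in library 1 its interval (451.7 to 505.3 CPM) overlapped that of the Opcml subset (444.2 to 478.5 CPM). Fmod was at 489 and 885 CPM in the Inmt subset and between 40.5 and 173 CPM in the 4 others. Ogn was at 1302 and 1679 CPM there and lowest in the Saa3 subset, at 254 and 238 CPM, a span of 5.12-fold (4.70 to 5.59) and 7.06-fold (6.10 to 8.21). Omd was at 110 CPM there in both libraries and at 15.2 and 4.98 CPM in the Saa3 subset. Podn was at 217 and 203 CPM there and between 51.8 and 134 CPM in the others.

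Lum and Bgn were ordered differently. Lum was highest in the Saa3 and Penk subsets, at 2561 and 2493 CPM in library 1 and 4218 and 4618 CPM in library 2, and lowest in the Opcml subset, at 1225 and 1522 CPM. Bgn was highest in the Saa3 subset at 4229 and 4651 CPM and lowest in the Opcml subset at 2533 and 2742 CPM. Saa3 itself is an acute-phase gene, and the Opcml panel holds Pi16 and Dpp4, known markers of adventitial progenitor-type fibroblasts. Dcn differed by 1.90-fold and 1.56-fold between the highest and the lowest subset and Prelp by 2.64-fold and 1.43-fold. Aspn had no stable order, being highest in the Opcml subset of library 1 and in the Inmt subset of library 2.

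**Figure D4:**
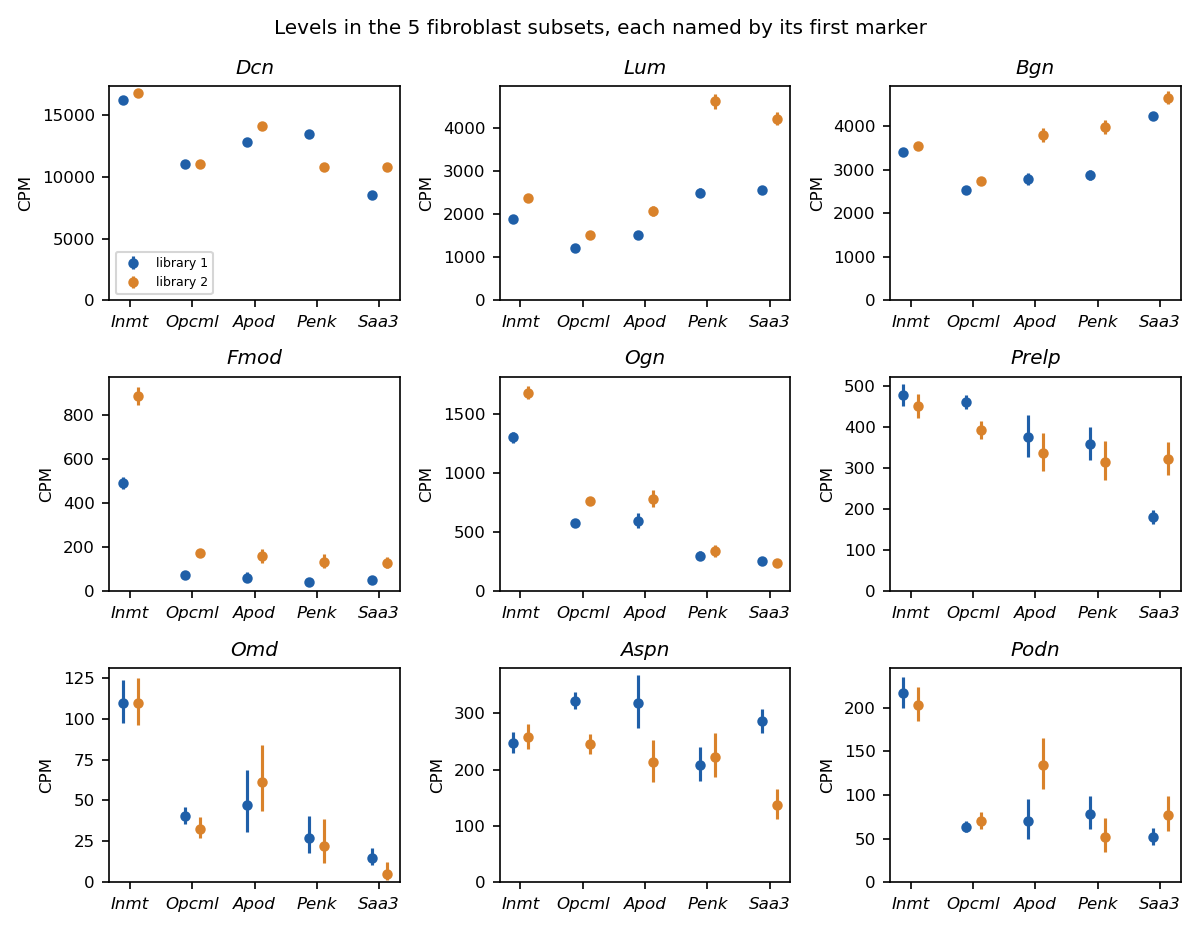
CPM on linear axes from 0 for each gene in the 5 fibroblast subsets, with library 1 in blue, library 2 in orange and 95% Poisson intervals as bars. Fmod, Ogn, Omd and Podn stand apart in the Inmt subset, and Lum is high in the Penk and Saa3 subsets.

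Chondrocyte-like barcodes, which carry cartilage genes such as Col2a1 and Acan, were compared with fibroblast-like barcodes. Only Fmod of the 9 was at least 2-fold higher in both libraries, against 8.24% of 9384 genes, and Ogn and Podn were lower, against 12.5% of genes. The median log2 ratio of the members was 0.04 and -0.20, that of all genes -0.12 and -0.09. Fmod was 9.30-fold (8.75 to 9.89) and 4.01-fold (3.83 to 4.20) higher. Ogn was 13.6-fold (10.7 to 17.6) and 18.3-fold (15.7 to 21.5) lower, on 65 and 168 UMIs. Podn was 15.9-fold (8.05 to 36.9) and 9.39-fold (6.81 to 13.3) lower. Lum was higher in both libraries, by 3.11-fold and 1.66-fold, and Bgn by 2.14-fold and 1.84-fold, without reaching the rule in library 2. The 3 calls were the same when more than 5 Col2a1 UMIs of 3000 were also required, a gate chosen after the data were seen.

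The libraries were set side by side within each class, as a description of 2 libraries and not of treatments. In fibroblast-like barcodes Fmod was the only member past 1.5-fold, at 2.25-fold (2.13 to 2.38) higher in library 2, where 2.64% of 8917 genes were higher by that much and 2.05% lower. It was higher in library 2 in each of the 5 subsets, by 1.81-fold in Inmt, 2.25-fold in Opcml, 2.56-fold in Saa3, 3.33-fold in Penk and 2.54-fold in Apod. In the fibroblast-like barcodes of no subset (152 and 135) Fmod was at 144.5 and 167.5 CPM, a ratio of 1.16 (0.960 to 1.40), within counting error of no difference. Fmod also differed in the low-count barcodes that measure free RNA, at 106 and 251 CPM. With free RNA subtracted the fibroblast-like ratio was 2.26, and with each barcode thinned to 3000 UMIs it was 1.81. Aspn was 1.42-fold (1.34 to 1.49) lower in library 2 in the fibroblast-like class as a whole, but unevenly so. It was 3.08-fold lower in the barcodes of no subset, 2.08-fold in Saa3, 1.49-fold in Apod and 1.315-fold in Opcml. In Inmt and Penk its ratio of library 2 to library 1 was 1.04 and 1.07.

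In contractile barcodes Aspn was the only member past 1.5-fold among the 7 at 10 CPM or more, at 2.01-fold (1.86 to 2.17) lower in library 2, where 3.73% of 8636 genes were lower and 2.01% higher. The bins of smooth muscle-type barcodes with 0 to 2 modulated genes showed it too, at 234, 182 and 168 CPM in library 1 and 107, 101 and 89.6 CPM in library 2. In modulated barcodes 0 of the 8 members at 10 CPM or more passed 1.5-fold, where 5.74% of 8813 genes were higher in library 2 and 2.12% lower. Aspn stood at 155 and 140 CPM there.

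In chondrocyte-like barcodes 5 members passed 1.5-fold, but so did many other genes, with 15.4% of 8893 higher in library 2 and 9.29% lower. Dcn (1.86-fold), Prelp (2.50-fold) and Aspn (1.68-fold) were lower in library 2. Omd was 3.30-fold (2.27 to 4.96) and Podn 1.98-fold (0.911 to 4.90) higher, the latter within counting error of no difference. Library 1 has 53 barcodes in this class. Thinned to 3000 UMIs each, the Omd ratio of library 2 to library 1 was 1.02, with Omd seen in only 3 of 53 (5.66%) and 20 of 230 (8.70%) barcodes. The Aspn ratio was 0.886 with the Col2a1 requirement and 1.25, the other direction, with stricter gates, so its call was lost in both. Ogn, at a ratio of 1.05, stood at 1.82 after thinning and at 0.544 with free RNA subtracted.

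**Figure D5:**
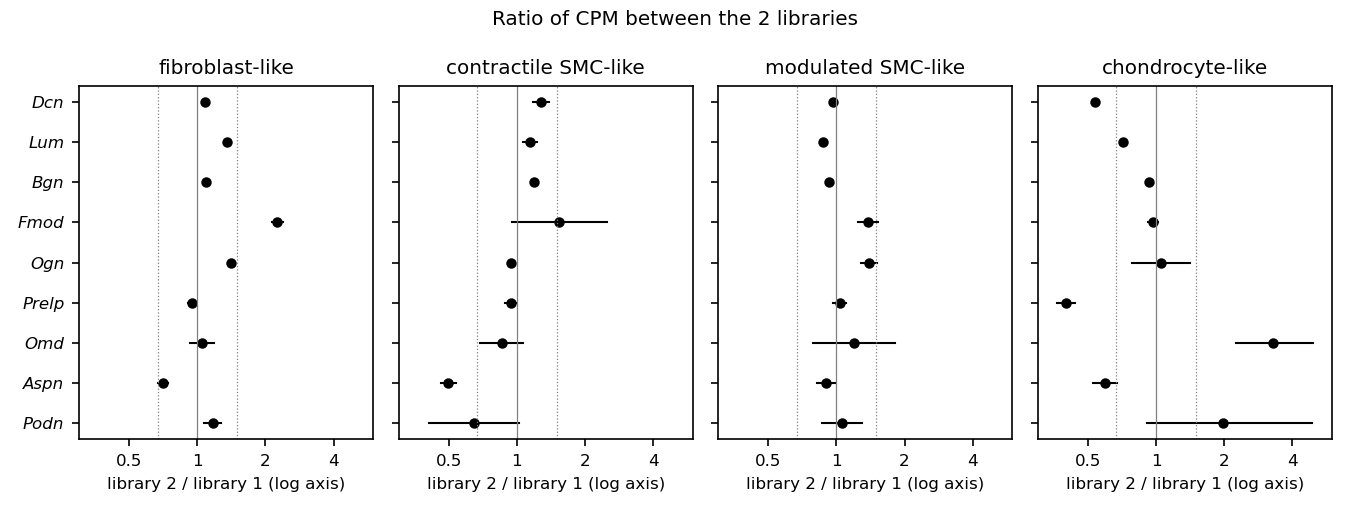
Ratio of CPM in library 2 to that in library 1 on a log axis, for each gene in the 4 wall classes, with 95% intervals as bars and dotted lines at 1.5-fold in each direction. Fmod in fibroblast-like and Aspn in contractile barcodes lie outside the dotted lines, and the chondrocyte-like class is the most scattered.

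The other genes of the family and its pathway were counted from named lists. Among 8 further small leucine-rich proteoglycans, Ecm2, the neighbour of Aspn, was at 146 and 168 CPM in contractile, 112 and 103 CPM in fibroblast-like and 47.6 and 56.7 CPM in modulated barcodes. Chad (chondroadherin), a cartilage protein, was at 145 and 96.0 CPM in chondrocyte-like barcodes and under 1.2 CPM in the 3 other wall classes. Optc (opticin), known from the eye, was at 101 and 125 CPM in contractile, 17.0 and 26.7 CPM in modulated and 2.10 and 4.92 CPM in fibroblast-like barcodes. Kera, between Lum and Epyc on chromosome 10, had 0 UMIs in all 6 classes. Of the 4 that passed the 10 CPM filter, 2 were higher in fibroblast-like than in contractile barcodes (Epyc and Tsku) and 1 was lower (Optc), with a median log2 ratio of 1.46 and 1.16 over the 4.

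Enzymes that build chondroitin and dermatan sulfate chains were counted next. Of 22 listed, 18 passed the filter, and 5 were higher and 1 lower both in fibroblast-like and in modulated barcodes against contractile ones, with median log2 ratios of 0.86 and 0.47, and of 0.43 and 0.38. Dse, the epimerase that makes dermatan sulfate, and Chst11, a chondroitin sulfotransferase, were higher in both comparisons. In chondrocyte-like against fibroblast-like barcodes 6 of 19 were higher and 1 lower, with median log2 ratios of 0.21 and 0.44. Among them was Xylt1, which starts the chain, at 786 and 937 CPM against 53.7 and 56.2 CPM. Keratan sulfate enzymes were scarce, with 1 of 5 (Chst2) passing the filter in the fibroblast-like comparison, at 13.0 and 14.1 CPM.

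Of 10 fibrillar and associated collagens, which these proteins bind, 8 were higher in fibroblast-like and 9 in modulated barcodes than in contractile ones, with 0 lower, and median log2 ratios of 2.06 and 1.39, and of 2.74 and 2.62. Col1a2 was at 570 and 590 CPM in contractile and 4777 and 4833 CPM in modulated barcodes. Among the processing enzymes, ligands and receptors 2 of 8 were higher in fibroblast-like barcodes (Bmp1 and Pcolce) and 5 of 8 in modulated ones (Bmp1, Pcolce, Lox, Tgfb1 and Tlr2), with 0 lower in either. Of the other proteoglycans 6 of 14 were higher and 1 lower in fibroblast-like, and 4 of 13 higher and 0 lower in modulated barcodes. The percent of all genes called in each comparison is that given above for the members.

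The genes whose pattern came closest to each member were found by Pearson's r of log2(CPM + 5) over 22 profiles, which are 11 classes and subsets in 2 libraries, among 6185 genes at 50 CPM or more in at least 1 profile. The profiles share libraries, and subsets are parts of a class, so r describes likeness only. For Dcn these were Serpinf1 (0.951) and Ptgfrn (0.945), for Lum Timp1 (0.946) and Lmo4 (0.934), and for Bgn Mxra8 (0.962) and Serpinh1 (0.960). Serpinf1 and Timp1 are markers of the gates, as is Comp (0.896), second to Sec16b (0.914) for Fmod. Ogn was most like Gabra3 (0.970) and Rarres2 (0.968), Prelp like Csgalnact2 (0.970) and Islr (0.967), and Aspn like Islr (0.971) and Prelp itself (0.950). Omd came closest to Aff3 (0.917) and Chrdl1 (0.878), and Podn to Ergic3 (0.957) and Plekha4 (0.955). Among the 36 pairs of members r lay between 0.707 and 0.846 for the 5 pairs of genome neighbours and between 0.373 and 0.950 for the 31 others, so the ranges overlapped.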

How the data were processed

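The authors deposited unfiltered UMI counts for the whole series, made with Cell Ranger 6.0.1 per the file headers, on genome build mm10 per the submitters' processing notes, which also name bcl2fastq and Seurat. The labels name the Chromium single-cell 3′ v3 kit. The matrix holds counts of 32285 genes, and columns of other samples numbered 0.

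Barcodes with 3000 or more UMIs and at most 20% mitochondrial UMIs were thinned to 3000 UMIs (seed 1) and gated by marker panels. Fibroblast-like needed 5 of 10 genes, contractile 7 of 10, and modulated 4 of 8 with 4 contractile genes. Chondrocyte-like needed 5 of 12, and endothelial-like and macrophage-like 4. Each gate allowed few genes of some, not all, of the other panels. In a class were 53.0% and 47.1% of kept barcodes. No doublet caller was run, and the gates dropped only part of the barcodes with markers of several classes. Modulated-panel genes were not limited in fibroblast-like or chondrocyte-like barcodes. In chondrocyte-like barcodes that panel summed to 24862 and 17116 CPM, much of it Spp1 (20949 and 14875 CPM), against 10335 and 10283 CPM in modulated ones. Unthinned counts were summed per class and library and given as CPM. No p-value is given, because each group has 1 sample and the libraries are not tied to samples. Intervals are 95%: exact Poisson for CPM, exact conditional binomial for ratios and Clopper-Pearson for shares; UMIs are counted, and a count of 0 allows up to 3. A call between classes needed 2-fold in both libraries, a call between libraries 1.5-fold, at 10 CPM or more in either, against the percent of all genes passing. Free RNA was estimated from barcodes of 10 to 100 UMIs and made up 1.61% to 11.5% of a class, the highest in endothelial-like barcodes of library 1. TMM factors came from edgeR 4.0.16. The call rule was tested on simulated data. Python 3.11.15, numpy 2.4.6, scipy 1.17.1, pandas 2.3.3 and matplotlib 3.10.9 were used.

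Named were the 9 members, the 2 genes most like each, and of each list the counts and up to 3 genes of highest CPM; other genes named (leading genes, and list genes counted as higher or lower) were chosen after their values were seen. The members, panels and lists were chosen with earlier results of these data known. RefSeq held upstream sequences for 7 members (Dcn and Lum had no entry). Group comparisons between HFD and MSC_ITGB3 were left out.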

Additional observations from a re-analysis of the deposited data

How the results depend on the processing

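The counts of members called between classes kept their values under 5000 or more UMIs, at most 10% mitochondrial UMIs, stricter gates, free RNA subtracted, TMM scaling and a background of all genes with a UMI, and all 278 ratios of 2-fold or more compared kept their direction. With each barcode thinned to 3000 UMIs, 4 members instead of 5 (without Bgn) were higher and 1 member (Ogn) instead of 2 was lower in modulated than in contractile barcodes, and 3 members (Fmod, Ogn and Omd) instead of 0 passed 1.5-fold between libraries in modulated barcodes. Between libraries, subtracting free RNA gave 2 members instead of 1 in contractile barcodes (Lum and Aspn), TMM scaling 2 instead of 1 in fibroblast-like ones (Fmod and Aspn), and a background of all genes with a UMI 3 instead of 1 in contractile ones (Fmod, Aspn and Podn). In chondrocyte-like barcodes the calls between libraries lost Podn with 5000 or more UMIs (a ratio of 1.64), Aspn with stricter gates (1.25) and with the Col2a1 requirement (0.886), and Omd on thinning (1.02). Subtracting free RNA lost Podn and gave Ogn lower in library 2 (0.544), while thinning gave Ogn higher (1.82).

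The family's share of UMIs over both libraries, 1.91% in fibroblast-like, 0.399% in contractile, 1.58% in modulated and 2.08% in chondrocyte-like barcodes, left its counting interval as follows. With 5000 or more UMIs it was 1.89% (fibroblast-like), 1.61% (modulated) and 2.11% (chondrocyte-like), and with at most 10% mitochondrial UMIs 1.59% (modulated) and 2.10% (chondrocyte-like). Stricter gates gave 0.384% (contractile), 1.62% (modulated) and 1.86% (chondrocyte-like). Thinning gave 2.06% (fibroblast-like), 0.396% (contractile), 1.47% (modulated) and 1.97% (chondrocyte-like). Subtracting free RNA gave 1.95%, 0.369%, 1.61% and 2.16% in that order, and the Col2a1 requirement, chosen after seeing the data, 1.95% in chondrocyte-like barcodes. The cause was not tested. Depth limits Fmod, Omd and Podn in contractile and comparison classes, where levels rest on few UMIs. No paired analysis was possible because each group has 1 sample.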

Other observations

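Endothelial-like barcodes held Bgn and Dcn above the macrophage-like level. Bgn was at 2414 and 2066 CPM, 18.0-fold (16.7 to 19.5) and 18.6-fold (16.5 to 21.0) the macrophage-like level, and Dcn was at 1206 and 1035 CPM, 6.43-fold and 6.01-fold. Free RNA was estimated at 11.5% and 6.49% of UMIs in endothelial-like barcodes and at 1.61% and 1.92% in macrophage-like ones, so the macrophage-like level is not a matched background. For both classes the estimate used the fibroblast, contractile and chondrocyte panels. Any gene of these panels that the cells make themselves would raise it. With free RNA subtracted, endothelial-like barcodes held Bgn at 2305 and 1921 CPM, Dcn at 884.6 and 817.2 CPM and Prelp at 0 and 10.9 CPM. Ogn (5.17 and 4.73 CPM) and Aspn (2.63 CPM in both) were no higher than in macrophage-like barcodes. Dcn gave 233 (181 to 307) and 219 (115 to 479) UMIs per Ogn UMI in endothelial-like barcodes, against 14.8 (13.5 to 16.1) and 12.3 (11.2 to 13.4) in the low-count barcodes that measure free RNA and 18.5 and 14.2 in fibroblast-like ones. Thinned to 3000 UMIs, Dcn was seen in 51.4% and 42.4% of endothelial-like barcodes and in 19.8% and 26.0% of macrophage-like ones. The fibroblast panel summed to 794.4 and 744.6 CPM in endothelial-like barcodes, with 10 and 9 of its 10 genes seen and Abca8a at 0 in library 2. Of its genes, Dpt was at 3.33 and 4.20 CPM and Pdgfra at 6.30 and 9.46 CPM there. Most of the sum thus came from the other panel genes, Cd34 among them, and it does not measure fibroblast RNA alone. The part of the panel in the Dcn level was not tested.

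Optc lies 2.3 kb past the end of Prelp on the same strand, and the 2 genes did not keep a fixed ratio. Optc gave 0.386 (0.356 to 0.417) and 0.509 (0.477 to 0.542) UMIs per Prelp UMI in contractile barcodes, 0.0649 and 0.0983 in modulated ones and 0.00524 and 0.0129 in fibroblast-like ones, where Prelp itself was higher. Chad, apart from chondrocyte-like barcodes, was at 9.28 and 32.6 CPM in endothelial-like ones, on 106 and 62 UMIs.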
